A study of Mus musculus with 4 samples.

Results

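The 42 genes described here are markers of white blood cells, read in RNA from sorted mouse islet cells. They were chosen by name: a row of the deposited gene table counted when its symbol was on a list of 10 pan-leukocyte, 20 macrophage, 4 dendritic cell, 3 B cell and 5 T or NK cell markers. All 42 were found among the 39170 rows of the table. The rule uses names and no measured value, though the list was drawn up with earlier results of these data known.

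The cells came from male C57BL/6 mice, 6 to 8 weeks old, that carry MIP-GFP, in which the mouse insulin 1 promoter drives a green fluorescent protein. Mice received streptozotocin (STZ) at 200 mg/kg into the abdominal cavity in citrate buffer and were diabetic 4 days later, or received vehicle. STZ alkylates DNA and is taken up into beta cells by Glut2, a glucose transporter that Slc2a2 encodes. Insulin-positive cells were sorted by Glut2 into a low gate (Glut2L) and a high gate (Glut2H), and the submitters call the low gate rich in what they name PMP cells. The 4 groups are Glut2L from STZ mice, Glut2L from control mice, Glut2H from STZ mice and Glut2H from control mice. All 4 carry the transgene and all were gated as insulin-positive. The labels give 3 mice per group and 1 library per group, but not whether the RNA of the mice was pooled. They also do not say whether the insulin-positive gate was set on the GFP reporter.

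With 1 library per group there is no replicate check, no difference was tested and no error between replicates can be given. Each comparison sets 1 library against 1 other and describes those libraries alone. Levels are in FPKM (fragments per kilobase, relative to all mapped fragments), a unit that corrects for gene length, so that genes can be compared. Differences are in log2(FPKM + 1), so that folds of genes at low levels are understated. The deposited interval around each FPKM, whose level is not stated, is the only error available, and it says nothing of the spread between mice.

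The libraries did not follow their gate labels at Slc2a2. It had 33.7 FPKM in the library labelled Glut2L from STZ mice and 41.0 FPKM in the library labelled Glut2L from control mice, against 10.8 FPKM in the Glut2H-labelled STZ library and 8.74 FPKM in the Glut2H-labelled control library. The gate is therefore named as labelled throughout. Both insulin genes were present in every library, with Ins2 at 175841 FPKM in Glut2L-labelled STZ cells and 294540.0 FPKM in Glut2L-labelled control cells, against 52596 FPKM in Glut2H-labelled STZ cells and 57345 FPKM in Glut2H-labelled control cells. Summed FPKM was 1562040 to 1654280 in the Glut2L-labelled libraries and 2935080 to 3428740 in the Glut2H-labelled ones, where a single row, Gm20594, held 68.5% of the sum in STZ cells and 61.0% in control cells. Read depth is unknown.

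Leukocytes share a set of genes for blood-cell signalling and for the actin cytoskeleton of moving cells, and each lineage adds its own receptors. Islets normally hold resident macrophages, which take up insulin granule contents and debris and present antigen, together with few dendritic cells and lymphocytes. Macrophage identity depends on the transcription factor PU.1, the product of Spi1, and on signalling from the receptor encoded by Csf1r. In bulk RNA, fewer cells of a type and less RNA per cell cannot be told apart.

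Upstream sequences of 4 members are shown because PU.1 and related ETS factors bind short purine-rich sites, and Spi1 is itself among the macrophage markers. RefSeq start sites on GRCm38.p6 gave 39 windows of 250 bases upstream for 30 of the 42 genes, and 32851 such windows for all genes. Each window below reads 5′ to 3′ along the strand of its gene, and capitals mark AGGAAGT or its reverse complement ACTTCCT.

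Fcgr1, chr3:96293970-96294219, minus strand: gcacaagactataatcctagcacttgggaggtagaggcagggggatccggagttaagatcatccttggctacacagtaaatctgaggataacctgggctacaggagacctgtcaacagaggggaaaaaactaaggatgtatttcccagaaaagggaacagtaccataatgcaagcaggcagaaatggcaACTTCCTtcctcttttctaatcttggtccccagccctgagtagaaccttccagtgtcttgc

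Ms4a6c, chr19:11469118-11469367, plus strand: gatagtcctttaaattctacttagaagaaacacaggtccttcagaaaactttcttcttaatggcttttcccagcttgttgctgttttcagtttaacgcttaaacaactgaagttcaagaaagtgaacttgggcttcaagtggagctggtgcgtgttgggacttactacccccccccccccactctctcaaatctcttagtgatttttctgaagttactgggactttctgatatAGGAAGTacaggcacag

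Lck, chr4:129573642-129573891, minus strand: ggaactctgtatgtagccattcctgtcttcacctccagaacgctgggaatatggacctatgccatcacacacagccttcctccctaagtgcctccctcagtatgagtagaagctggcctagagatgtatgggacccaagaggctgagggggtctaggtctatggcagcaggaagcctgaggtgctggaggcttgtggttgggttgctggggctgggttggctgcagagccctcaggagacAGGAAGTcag

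Ctss, chr3:95526536-95526785, plus strand: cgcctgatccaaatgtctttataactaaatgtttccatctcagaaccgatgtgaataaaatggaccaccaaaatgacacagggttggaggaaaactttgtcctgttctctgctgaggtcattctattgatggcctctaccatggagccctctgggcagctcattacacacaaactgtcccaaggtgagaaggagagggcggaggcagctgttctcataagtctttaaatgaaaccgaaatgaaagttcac

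The Fcgr1 and Ms4a6c windows belong to macrophage markers, the Lck window to a T cell gene, and the Ctss window, which has no match, to the macrophage marker of highest mean level. AGGAAGT was searched on both strands and lay in 10 of the 39 windows of these genes (25.6%), from 8 genes, against 7.69% of windows of all genes. Those 8 genes were Arhgdib, Cd3e, Cd79a, Fcgr1, Lck, Lyz2, Ms4a6c and Ptprc. The longer GAGGAAGT, which contains it, was in 0 of the 39 windows and in 2.44% of all windows. The shorter GAGGAA, which overlaps both, was in 17 of the 39 windows, 43.6%, and in 23.3% of all windows. Some genes have more than 1 window, windows of neighbouring starts overlap, and the 3 searches are not independent. A match is a string of letters and not a measured binding site. Lck and Cd79a hold the motif as Fcgr1 does, but their levels across the libraries differed from that of Fcgr1, as given below.

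The leukocyte markers as a whole were far lower in the libraries labelled Glut2L. Their summed level was 165 FPKM in Glut2L-labelled STZ cells and 124 FPKM in Glut2L-labelled control cells, against 3383 FPKM in Glut2H-labelled STZ cells and 3277 FPKM in Glut2H-labelled control cells. The median gene stood at 1.13 FPKM in Glut2L-labelled STZ cells and 1.20 FPKM in Glut2L-labelled control cells, against 33.4 FPKM in Glut2H-labelled STZ cells and 32.5 FPKM in Glut2H-labelled control cells. The sum in Glut2L-labelled cells was thus 4.88% of that in Glut2H-labelled cells in STZ mice and 3.79% in control mice. With libraries rescaled to an equal sum the shares were 10.7% and 6.73%. At 10 FPKM or more stood 6 genes in Glut2L-labelled STZ cells and 2 in Glut2L-labelled control cells, against 27 in Glut2H-labelled STZ cells and 28 in Glut2H-labelled control cells.

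Counted gene by gene, 29 of the 42 were at least 2-fold lower in Glut2L-labelled cells of STZ mice and 3 were at least 2-fold higher. Among all 15839 genes measured in that pair, 17.8% were at least 2-fold lower and 22.9% at least 2-fold higher. In control mice 35 of the 42 were at least 2-fold lower and 1 was higher, where 18.5% of 16234 measured genes were lower and 19.7% higher. A gene counted as measured when it reached 1 FPKM in either library of a pair, which 35 of the 42 did in STZ mice and 39 in control mice. Over all 42 genes the median difference was -3.86 in STZ mice and -3.94 in control mice. Over the measured members it was -4.12 and -3.95, beside medians of 0.23 and 0.15 over all measured genes. Rescaling to an equal sum moved those all-gene medians to 1.18 and 0.87, so gate differences are best read relative to them. With the trimmed sum the all-gene medians were 0.17 and 0.11. A stricter count gave the same direction: 20 of the 42 were at least 16-fold lower in STZ mice, where 1.67% of measured genes were, and 17 were in control mice, where 1.81% were. The deposited intervals of 27 genes lay apart as well as being 2-fold lower in STZ mice, and those of 29 did in control mice, where 4.15% and 4.19% of measured genes met both conditions.

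**Figure D1:**
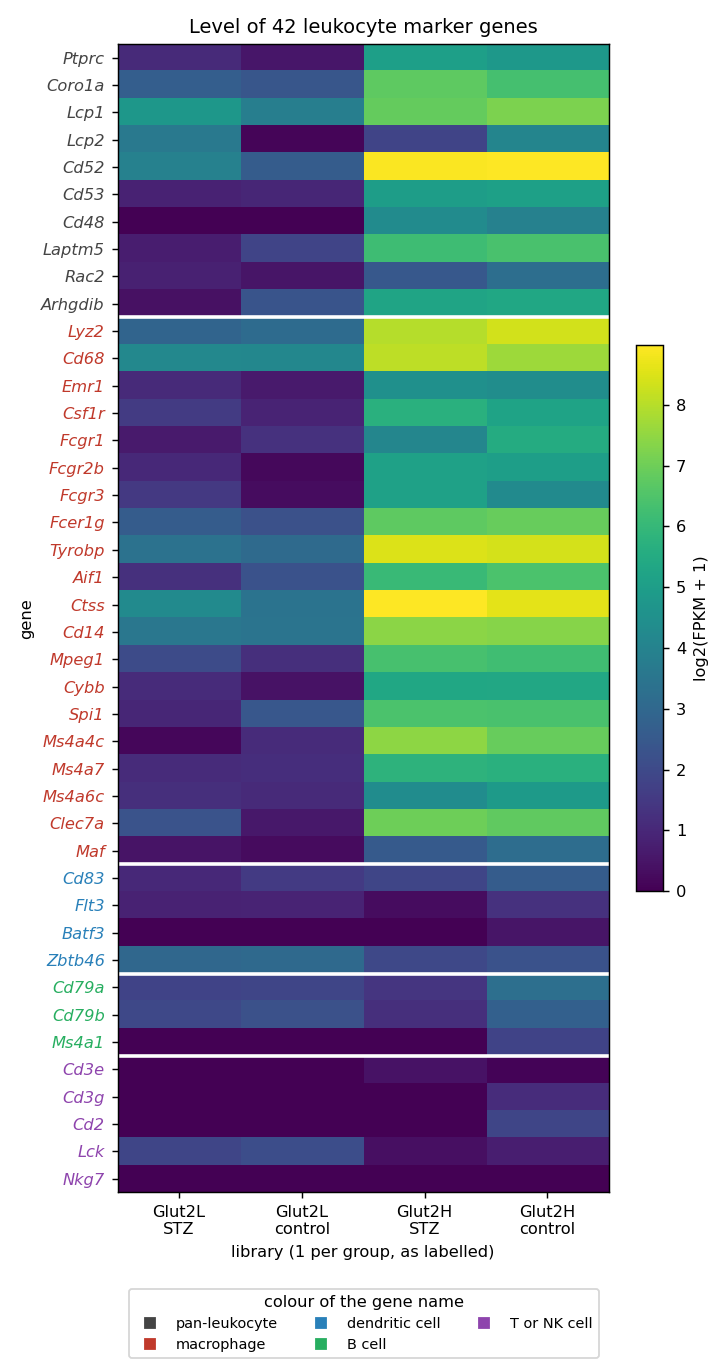
Heat map of log2(FPKM + 1) for the 42 genes (rows, grouped by lineage, with gene names coloured by lineage) in the 4 libraries (columns, 1 per group). Most pan-leukocyte and macrophage rows are bright in the Glut2H-labelled columns alone, and the dendritic, B and T or NK cell rows are dark in every column.

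The macrophage markers, which are 20 of the 42 genes, made up most of the summed level. Such a share depends on how many genes each list holds. They summed to 87.4 FPKM in Glut2L-labelled STZ cells and 73.2 FPKM in Glut2L-labelled control cells, against 2467 FPKM in Glut2H-labelled STZ cells and 2292 FPKM in Glut2H-labelled control cells. That was 53.0% of the summed leukocyte level in Glut2L-labelled STZ cells and 58.9% in Glut2L-labelled control cells, against 72.9% in Glut2H-labelled STZ cells and 69.9% in Glut2H-labelled control cells. Each of the 20 was at least 2-fold lower in Glut2L-labelled cells in both treatments, each with deposited intervals apart, and all 20 stayed below 0 under every pseudocount and scaling tried. Their differences ran from -7.31 to -2.08 in STZ mice, with a median of -4.20, and from -6.19 to -2.96 in control mice, with a median of -4.41.

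Secreted and lysosomal products of macrophages included the macrophage marker of highest mean level, Ctss. Ctss had 18.5 FPKM in Glut2L-labelled STZ cells and 9.76 FPKM in Glut2L-labelled control cells, against 493 FPKM in Glut2H-labelled STZ cells and 387 FPKM in Glut2H-labelled control cells. Ctss (ENSMUSG00000038642, GRCm38 chr3:95526786-95556403) encodes cathepsin S, the lysosomal protease that trims the invariant chain for antigen presentation, and it ranked 167 among all rows in Glut2H-labelled STZ cells and 200 in Glut2H-labelled control cells. The difference was -4.66 in STZ mice and -5.17 in control mice. Lyz2 had 6.39 FPKM in Glut2L-labelled STZ cells and 7.92 FPKM in Glut2L-labelled control cells, against 250.4 FPKM in Glut2H-labelled STZ cells and 332 FPKM in Glut2H-labelled control cells. Lyz2, the lysozyme of myeloid cells, differed by -5.09 in STZ mice and -5.22 in control mice. Cd68 had 17.3 FPKM in Glut2L-labelled STZ cells and 16.9 FPKM in Glut2L-labelled control cells, against 269 FPKM in Glut2H-labelled STZ cells and 201 FPKM in Glut2H-labelled control cells. Cd68, a glycoprotein of lysosomes and endosomes, kept a larger remainder than the other 2, with differences of -3.88 and -3.50 in STZ and control mice.

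Several markers belong to receptors that signal through immunoreceptor tyrosine motifs. Tyrobp had 9.35 FPKM in Glut2L-labelled STZ cells and 7.64 FPKM in Glut2L-labelled control cells, against 365 FPKM in Glut2H-labelled STZ cells and 339.9 FPKM in Glut2H-labelled control cells. Tyrobp (chr7:30413760-30417585) encodes DAP12, the signalling adaptor of many myeloid receptors, and its intervals were 1.46 to 17.0 FPKM in Glut2L-labelled STZ cells and 161 to 568 FPKM in Glut2H-labelled STZ cells. The gates were apart by -5.14 in STZ mice and -5.30 in control mice, while the treatments stood within 0.26 of each other in either gate. Fcer1g had 5.10 FPKM in Glut2L-labelled STZ cells and 3.70 FPKM in Glut2L-labelled control cells, against 108 FPKM in Glut2H-labelled STZ cells and 119 FPKM in Glut2H-labelled control cells. Fcer1g is the shared gamma chain of Fc receptors, through which the receptor encoded by Fcgr1 signals. Fcgr1 had 0.551 FPKM in Glut2L-labelled STZ cells and 1.44 FPKM in Glut2L-labelled control cells, against 16.4 FPKM in Glut2H-labelled STZ cells and 45.0 FPKM in Glut2H-labelled control cells. Fcgr1, the high-affinity receptor for IgG, is on chr3 at 96282909 to 96293969. Its 2 Glut2H-labelled values were less alike than those of Tyrobp, as described under the STZ comparison. The low-affinity receptors Fcgr2b, which is inhibitory, and Fcgr3, which is activating, had 1.03 and 1.78 FPKM in Glut2L-labelled STZ cells, against 34.4 and 34.1 FPKM in Glut2H-labelled STZ cells. In control mice Fcgr2b had 0.157 FPKM in Glut2L-labelled cells and 31.8 FPKM in Glut2H-labelled cells. Fcgr3 had 0.230 FPKM in Glut2L-labelled control cells and 18.7 FPKM in Glut2H-labelled control cells.

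Pattern-recognition and surface molecules behaved alike between the gates. Clec7a had 3.90 FPKM in Glut2L-labelled STZ cells and 0.504 FPKM in Glut2L-labelled control cells, against 128 FPKM in Glut2H-labelled STZ cells and 108 FPKM in Glut2H-labelled control cells. Clec7a encodes Dectin-1, the receptor for fungal beta-glucan, and had the lowest difference of the macrophage markers in control mice, -6.19, with -4.72 in STZ mice. Ms4a4c had 0.105 FPKM in Glut2L-labelled STZ cells and 1.13 FPKM in Glut2L-labelled control cells, against 175 FPKM in Glut2H-labelled STZ cells and 117 FPKM in Glut2H-labelled control cells. Ms4a4c, a membrane-spanning 4A family gene, had the lowest in STZ mice, -7.31, and its level in Glut2L-labelled STZ cells was 0.0603% of that in Glut2H-labelled STZ cells. The other MS4A genes among the macrophage markers, Ms4a7 and Ms4a6c, had Glut2L-labelled levels of 1.08 to 1.30 FPKM and Glut2H-labelled levels of 19.8 to 54.4 FPKM. Of the exon bases of Ms4a6c, 53.1% are shared with a transcript on the opposite strand, BE692007. Cd14, the co-receptor for bacterial lipopolysaccharide, had 10.9 FPKM in Glut2L-labelled STZ cells and 9.97 FPKM in Glut2L-labelled control cells, against 169 FPKM in Glut2H-labelled STZ cells and 163 FPKM in Glut2H-labelled control cells. Emr1, which encodes F4/80, Mpeg1, which encodes the pore former perforin-2, and Cybb, the catalytic subunit of the phagocyte oxidase, differed by -3.43 to -4.30 in STZ mice and by -3.77 to -5.04 in control mice.

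Regulators of the macrophage lineage showed the same direction. Spi1 had 0.930 FPKM in Glut2L-labelled STZ cells and 4.44 FPKM in Glut2L-labelled control cells, against 85.8 FPKM in Glut2H-labelled STZ cells and 83.2 FPKM in Glut2H-labelled control cells. Spi1 encodes PU.1, and its gate difference was -5.49 in STZ mice and -3.95 in control mice. Csf1r had 1.93 FPKM in Glut2L-labelled STZ cells and 0.875 FPKM in Glut2L-labelled control cells, against 51.5 FPKM in Glut2H-labelled STZ cells and 35.9 FPKM in Glut2H-labelled control cells. Csf1r, the receptor for colony-stimulating factor 1, shares 15.1% of its exon bases with Hmgxb3 on the opposite strand. Maf had 0.396 FPKM in Glut2L-labelled STZ cells and 0.193 FPKM in Glut2L-labelled control cells, against 4.89 FPKM in Glut2H-labelled STZ cells and 8.29 FPKM in Glut2H-labelled control cells. Maf encodes c-Maf, a transcription factor of mature macrophages that is also made by endocrine and lymphoid cells, and it had the least negative difference of the 20 in both treatments, -2.08 in STZ mice and -2.96 in control mice. Aif1, which encodes the actin-binding protein IBA1, had 1.37 FPKM in Glut2L-labelled STZ cells and 3.81 FPKM in Glut2L-labelled control cells, against 66.5 FPKM in Glut2H-labelled STZ cells and 85.2 FPKM in Glut2H-labelled control cells.

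**Figure D2:**
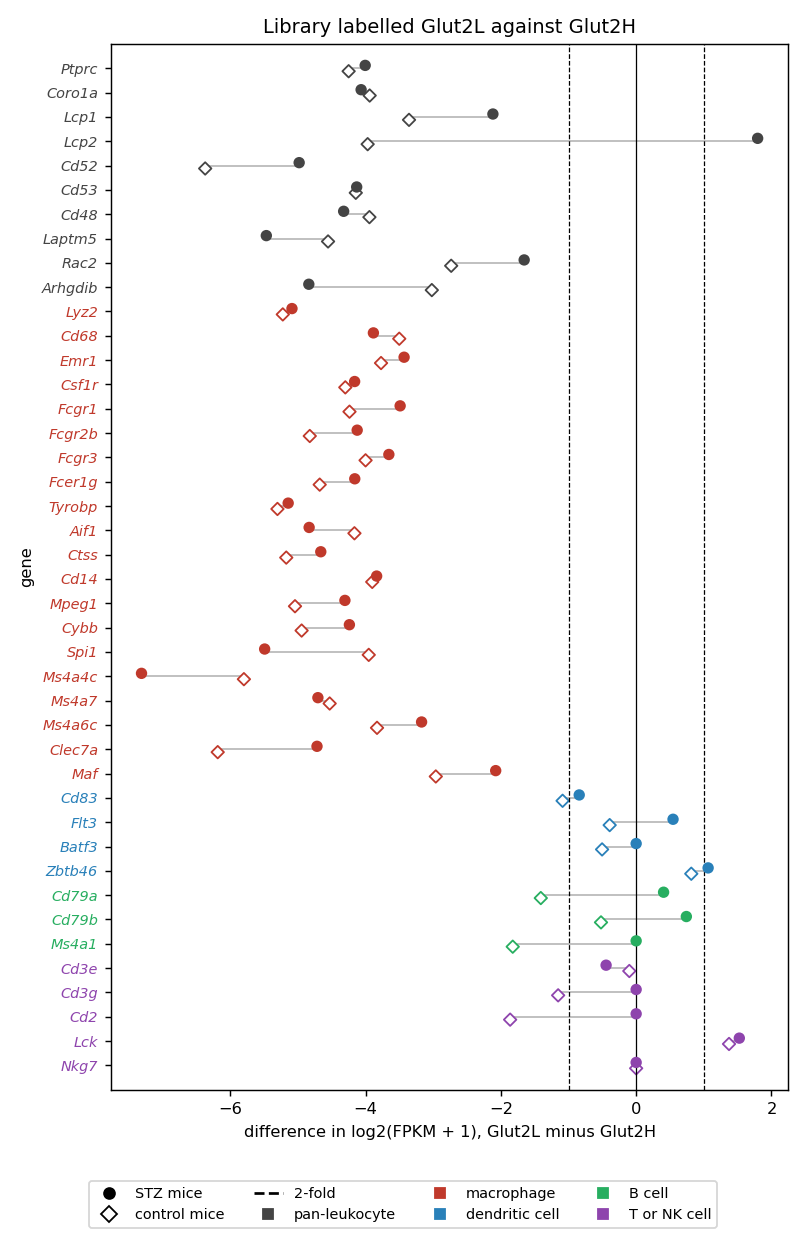
Difference in log2(FPKM + 1), Glut2L-labelled minus Glut2H-labelled, for each of the 42 genes in STZ mice (filled circles) and control mice (open diamonds), with dashed lines at 2-fold and 1 library behind each value. The macrophage markers lie between -7.31 and -2.08 in both treatments, while the dendritic, B and T or NK cell markers lie near or to the right of 0 more often, and genes listed at 0 in both libraries of a pair are drawn at 0.

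The pan-leukocyte markers were lower in the Glut2L-labelled libraries as well, with 1 exception in STZ mice. They summed to 60.6 FPKM in Glut2L-labelled STZ cells and 31.2 FPKM in Glut2L-labelled control cells, against 906 FPKM in Glut2H-labelled STZ cells and 952 FPKM in Glut2H-labelled control cells. At least 2-fold lower were 9 of the 10 in STZ mice, with Lcp2 higher, and all 10 in control mice. The median of the 10 was -4.10 in STZ mice and -3.96 in control mice.

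Cd52 had the highest mean level of the 10. Cd52 had 14.5 FPKM in Glut2L-labelled STZ cells and 5.11 FPKM in Glut2L-labelled control cells, against 487 FPKM in Glut2H-labelled STZ cells and 505 FPKM in Glut2H-labelled control cells. Cd52 (ENSMUSG00000000682, chr4:134082448-134095082), a small glycoprotein anchored on lymphocytes and myeloid cells, was the highest of all 42 genes in Glut2H-labelled control cells and ranked 161 among all rows there. Its difference was -4.98 in STZ mice and -6.37 in control mice, and 14.5% of its exon bases are shared with Crybg2 on the opposite strand. Ptprc had 1.10 FPKM in Glut2L-labelled STZ cells and 0.457 FPKM in Glut2L-labelled control cells, against 32.8 FPKM in Glut2H-labelled STZ cells and 26.7 FPKM in Glut2H-labelled control cells. Ptprc (chr1:138062861-138175708) encodes CD45, the tyrosine phosphatase used to define leukocytes, and differed by -4.01 in STZ mice and -4.25 in control mice. Laptm5 had 0.634 FPKM in Glut2L-labelled STZ cells and 2.59 FPKM in Glut2L-labelled control cells, against 71.3 FPKM in Glut2H-labelled STZ cells and 83.3 FPKM in Glut2H-labelled control cells. Laptm5, a lysosomal transmembrane protein of blood cells, differed by -5.47 in STZ mice and -4.55 in control mice. Cd48, a ligand of lymphocyte receptors, was listed at 0 in both Glut2L-labelled libraries, against 19.0 FPKM in Glut2H-labelled STZ cells and 14.4 FPKM in Glut2H-labelled control cells. Cd53, a tetraspanin, had 0.806 FPKM in Glut2L-labelled STZ cells and 0.937 FPKM in Glut2L-labelled control cells, against 30.6 FPKM in Glut2H-labelled STZ cells and 33.3 FPKM in Glut2H-labelled control cells.

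Cytoskeletal genes were less uniform. Coro1a had 5.37 FPKM in Glut2L-labelled STZ cells and 4.30 FPKM in Glut2L-labelled control cells, against 106 FPKM in Glut2H-labelled STZ cells and 80.4 FPKM in Glut2H-labelled control cells. Coro1a encodes coronin 1A, an actin-binding protein of blood cells. Lcp1 had 25.8 FPKM in Glut2L-labelled STZ cells and 13.3 FPKM in Glut2L-labelled control cells, against 115 FPKM in Glut2H-labelled STZ cells and 146 FPKM in Glut2H-labelled control cells. Lcp1 encodes L-plastin, which bundles actin, and it was the highest of all 42 genes in Glut2L-labelled STZ cells. Its Glut2L-labelled level was 22.4% of the Glut2H-labelled level in STZ mice and 9.14% in control mice, a larger remainder than any macrophage marker had, and its deposited intervals overlapped in both pairs. Rac2 had 0.766 FPKM in Glut2L-labelled STZ cells and 0.412 FPKM in Glut2L-labelled control cells, against 4.56 FPKM in Glut2H-labelled STZ cells and 8.39 FPKM in Glut2H-labelled control cells. Rac2 is a small GTPase of blood cells that acts on actin and on the phagocyte oxidase. Arhgdib had 0.333 FPKM in Glut2L-labelled STZ cells and 4.00 FPKM in Glut2L-labelled control cells, against 37.1 FPKM in Glut2H-labelled STZ cells and 39.6 FPKM in Glut2H-labelled control cells.

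Lcp2 was the exception. It encodes SLP-76, an adaptor between immunoreceptors and downstream enzymes in T cells, mast cells, platelets and myeloid cells. Lcp2 had 11.4 FPKM in Glut2L-labelled STZ cells and 0.0957 FPKM in Glut2L-labelled control cells, against 2.56 FPKM in Glut2H-labelled STZ cells and 16.2 FPKM in Glut2H-labelled control cells. It was thus high in 1 library of each gate and low in the other, with a gate difference of 1.80 in STZ mice and -3.97 in control mice. The interval reached from 0 to 47.2 FPKM in Glut2L-labelled STZ cells and from 0 to 7.08 FPKM in Glut2H-labelled STZ cells, and from 0 to 1.69 FPKM in Glut2L-labelled control cells and from 0.829 to 31.4 FPKM in Glut2H-labelled control cells, so both pairs overlapped. Lcp2 itself lies at chr11:34046920-34092295, whereas the deposited locus of the row, chr11:33629339-34098554, also spans Kcnip1 and Kcnmb1, a pair of potassium channel subunit genes looked up after the values were seen. Kcnip1 had 21.2 FPKM in Glut2L-labelled STZ cells and 22.3 FPKM in Glut2L-labelled control cells, against 7.34 FPKM in Glut2H-labelled STZ cells and 7.30 FPKM in Glut2H-labelled control cells. Whether reads of a neighbour entered the Lcp2 row was not tested.

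The dendritic, B and T or NK cell markers were mixed between the gates. Only measured genes could be counted. In STZ mice these were 2 of 4 dendritic, 2 of 3 B cell and 1 of 5 T or NK cell markers. At least 2-fold lower in Glut2L-labelled cells were 0, 0 and 0 of them, and 1, 0 and 1 were higher. So few genes say little about these lists. In control mice 3 genes of each list were measured. Of these, 1 dendritic, 2 B cell and 2 T or NK cell markers were lower, and 0, 0 and 1 were higher. All measured genes were at least 2-fold lower in 17.8% of cases in STZ mice and 18.5% in control mice. The shares at least 2-fold higher were 22.9% and 19.7%. Together these 12 genes had no value above 8.83 FPKM in any library.

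The dendritic cell markers summed to 8.90 FPKM in Glut2L-labelled STZ cells and 10.1 FPKM in Glut2L-labelled control cells, against 5.76 FPKM in Glut2H-labelled STZ cells and 10.8 FPKM in Glut2H-labelled control cells. The sum in Glut2L-labelled cells was 155% of that in Glut2H-labelled cells in STZ mice and 94.2% in control mice. The value in control mice turned to 167% with libraries rescaled to an equal sum and was 91.6% with the trimmed sum. Zbtb46 was the highest of the 4 in both Glut2L-labelled libraries. Zbtb46 had 7.04 FPKM in Glut2L-labelled STZ cells and 7.40 FPKM in Glut2L-labelled control cells, against 2.85 FPKM in Glut2H-labelled STZ cells and 3.77 FPKM in Glut2H-labelled control cells. Zbtb46, a transcription factor of conventional dendritic cells that endothelial cells also make, was higher in Glut2L-labelled cells by 1.06 in STZ mice and 0.81 in control mice. The deposited intervals of Zbtb46 overlapped in both pairs. Its difference in STZ mice ran from 0.62 to 1.98 over the settings tried, so it did not stay past 2-fold in each. Cd83 had 1.05 FPKM in Glut2L-labelled STZ cells and 1.90 FPKM in Glut2L-labelled control cells, against 2.67 FPKM in Glut2H-labelled STZ cells and 5.15 FPKM in Glut2H-labelled control cells. Cd83, a surface protein of mature dendritic cells and activated lymphocytes, differed by -0.84 in STZ mice and -1.09 in control mice. Flt3 had 0.805 FPKM in Glut2L-labelled STZ cells and 0.851 FPKM in Glut2L-labelled control cells, against 0.237 FPKM in Glut2H-labelled STZ cells and 1.43 FPKM in Glut2H-labelled control cells. Flt3, the receptor for FLT3 ligand on dendritic cell precursors, differed by 0.55 in STZ mice and by -0.39 in control mice, and the value in control mice turned to 0.04 under the equal-sum scaling. Batf3, a transcription factor of cross-presenting dendritic cells, was listed at 0 in every library but Glut2H-labelled control, where it had 0.418 FPKM.

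The B cell markers were low throughout. Cd79a had 2.46 FPKM in Glut2L-labelled STZ cells and 2.70 FPKM in Glut2L-labelled control cells, against 1.61 FPKM in Glut2H-labelled STZ cells and 8.83 FPKM in Glut2H-labelled control cells. Cd79a and Cd79b encode the signalling chains of the B cell receptor. Cd79b had 2.89 FPKM in Glut2L-labelled STZ cells and 3.71 FPKM in Glut2L-labelled control cells, against 1.32 FPKM in Glut2H-labelled STZ cells and 5.75 FPKM in Glut2H-labelled control cells. The gate difference of Cd79a was 0.41 in STZ mice and -1.41 in control mice. That of Cd79b was 0.74 in STZ mice and -0.52 in control mice, and the value in control mice turned to 0.16 under the equal-sum scaling. Ms4a1, which encodes CD20, was listed at 0 in all libraries except Glut2H-labelled control, where it had 2.54 FPKM with an interval of 0.258 to 4.84 FPKM. That interval lay apart from the one in Glut2L-labelled control cells. The deposited locus of the Ms4a1 row is wider than the gene.

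Of the T or NK cell markers only Lck had a value above 0 in the Glut2L-labelled libraries. Lck had 2.70 FPKM in Glut2L-labelled STZ cells and 3.40 FPKM in Glut2L-labelled control cells, against 0.287 FPKM in Glut2H-labelled STZ cells and 0.699 FPKM in Glut2H-labelled control cells. Lck (ENSMUSG00000000409, chr4:129548344-129573641), the kinase that starts T cell receptor signalling, was higher in Glut2L-labelled cells by 1.52 in STZ mice and 1.37 in control mice, and stayed above 0 under every pseudocount and scaling tried. The intervals of its 4 values all began at 0 and overlapped. The chains of the T cell receptor complex were mixed. Cd247 and Cd3d, which are no members and were named after their values were seen, encode its zeta and delta chains. Cd247 had 1.19 FPKM in Glut2L-labelled STZ cells and 0.746 FPKM in Glut2L-labelled control cells and was listed at 0 in both Glut2H-labelled libraries. Cd3d had 0.311 FPKM in Glut2L-labelled STZ cells and 0.377 FPKM in Glut2L-labelled control cells, against 0.624 FPKM in Glut2H-labelled STZ cells and 0.824 FPKM in Glut2H-labelled control cells. Cd3e was listed at 0 in both Glut2L-labelled libraries, against 0.361 FPKM in Glut2H-labelled STZ cells and 0.0725 FPKM in Glut2H-labelled control cells. Cd3g and Cd2, an adhesion receptor of T and NK cells, were listed at 0 in all libraries except Glut2H-labelled control, where Cd3g had 1.22 FPKM and Cd2 had 2.64 FPKM. Nkg7, a granule protein of NK and cytotoxic T cells, was listed at 0 in all 4.

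**Figure D3:**
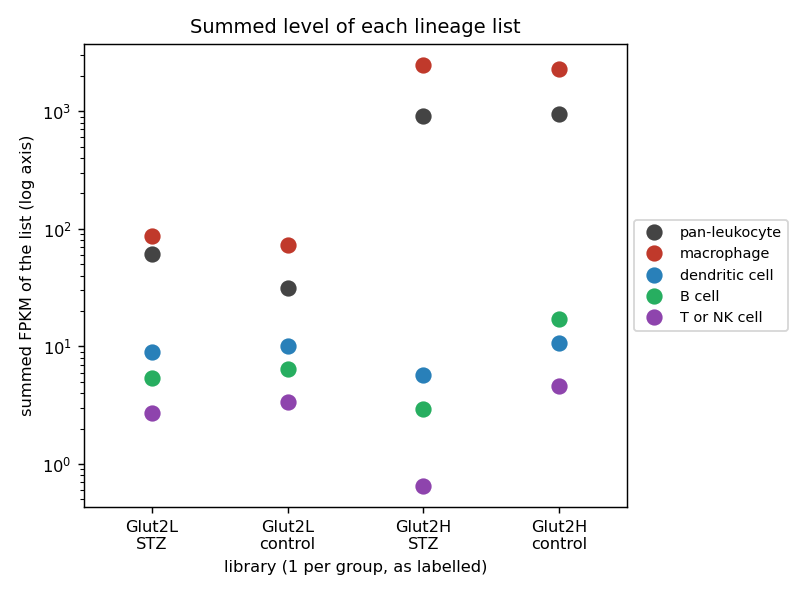
Summed FPKM of each lineage list (log axis) in each of the 4 libraries, with 1 point per list and library and no error bar because each group has 1 library. The macrophage and pan-leukocyte sums lie between 31.2 and 87.4 FPKM in the Glut2L-labelled libraries and between 906 and 2467 FPKM in the Glut2H-labelled ones, while the other 3 sums reach 17.1 FPKM at most.

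Within the Glut2L-labelled gate, STZ and control cells differed far less in these genes than the gates did. The sum was 165 FPKM in STZ cells and 124 FPKM in control cells, which is 133% of the control sum. At least 2-fold lower in STZ cells were 4 of the 42 genes, Laptm5, Arhgdib, Aif1 and Spi1, and 4 were at least 2-fold higher, Lcp2, Cd52, Fcgr3 and Clec7a. Over all 15602 measured genes of the pair 11.1% were lower and 10.2% higher. The 8 genes spanned both directions in the pan-leukocyte and the macrophage list alike, and 0 of the 8 had deposited intervals apart, a condition met with a 2-fold lower level by 0.41% of measured genes and with a 2-fold higher one by 0.32%. Cd52 differed by 1.34, with 14.5 FPKM and an interval of 1.90 to 26.9 FPKM in STZ cells, against 5.11 FPKM and 0 to 14.7 FPKM in control cells. Clec7a differed by 1.71 and Spi1 by -1.49, at levels of 0.504 to 4.44 FPKM. Neither stayed past 2-fold under every pseudocount, filter and scaling. The median was 0.15 over the 31 measured members, beside 0.00 over all measured genes. By list, the sum in STZ cells was 194% of the control sum for pan-leukocyte and 119% for macrophage markers. For the dendritic, B and T or NK cell lists it was 79.5% to 87.7%. Of the pan-leukocyte genes, 6 were above and 3 below their control level. Lcp2, whose deposited locus is wider than the gene, had 11.4 FPKM in STZ cells and 0.0957 FPKM in control cells. Lcp1 had 25.8 FPKM in STZ cells and 13.3 FPKM in control cells, with overlapping intervals.

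Within the Glut2H-labelled gate the macrophage markers stood nearly level between treatments. Their sum in STZ cells was 108% of that in control cells, and their median difference was 0.08. The sum was 92.2% of control with libraries rescaled to an equal sum and 107% with the trimmed sum. The median over all 42 genes was -0.10, beside -0.07 over all measured genes. Of the 42 genes, 38 were measured, of which 7 were at least 2-fold lower in STZ cells and 0 higher. Among all 15558 measured genes 13.8% were lower and 9.62% higher. The 7 were Lcp2, Fcgr1, Cd79a, Cd79b, Ms4a1, Cd3g and Cd2, of which 5 are lymphocyte markers. Fcgr1 was the only macrophage marker among them. It differed by -1.40, with an interval of 2.75 to 31.5 FPKM in STZ cells and 12.3 to 78.2 FPKM in control cells.

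Of the 8 lymphocyte markers, 6 were lower in the Glut2H-labelled STZ library, Cd3e was higher and Nkg7 was listed at 0 in both libraries. Among all 39170 rows, 11374 were lower there and 8627 higher. Listed at 0 were 21927 rows in STZ cells and 20374 in control cells, so more low rows fell to 0 in the STZ library. All 3 B cell genes were at least 2-fold lower, and their sum was 2.94 FPKM in STZ cells and 17.1 FPKM in control cells, which is 17.2% of the control sum. Cd79a differed by -1.91, with intervals of 0.0940 to 3.20 FPKM in STZ cells and 2.73 to 14.9 FPKM in control cells, and Cd79b differed by -1.54. Ms4a1 was listed at 0 in STZ cells, and it was the 1 gene of the 7 whose intervals lay apart, a condition met together with a 2-fold lower level by 0.656% of measured genes. Of the 5 T or NK cell genes, 3 were below and 1, Cd3e, was above its control level, with 0.361 FPKM in STZ cells and 0.0725 FPKM in control cells. The T or NK cell sum was 0.648 FPKM in STZ cells and 4.63 FPKM in control cells. Red blood cell genes moved alongside: Hba-a1 was listed at 0 in the other 3 libraries and had 45.0 FPKM in Glut2H-labelled control cells, and Hbb-bs likewise had 29.6 FPKM there. The part of blood in the lymphocyte values of that library was not tested. In the Glut2L-labelled gate the B cell sum was 5.35 FPKM in STZ cells and 6.41 FPKM in control cells. Whether the STZ difference itself differed between gates was not tested.

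**Figure D4:**
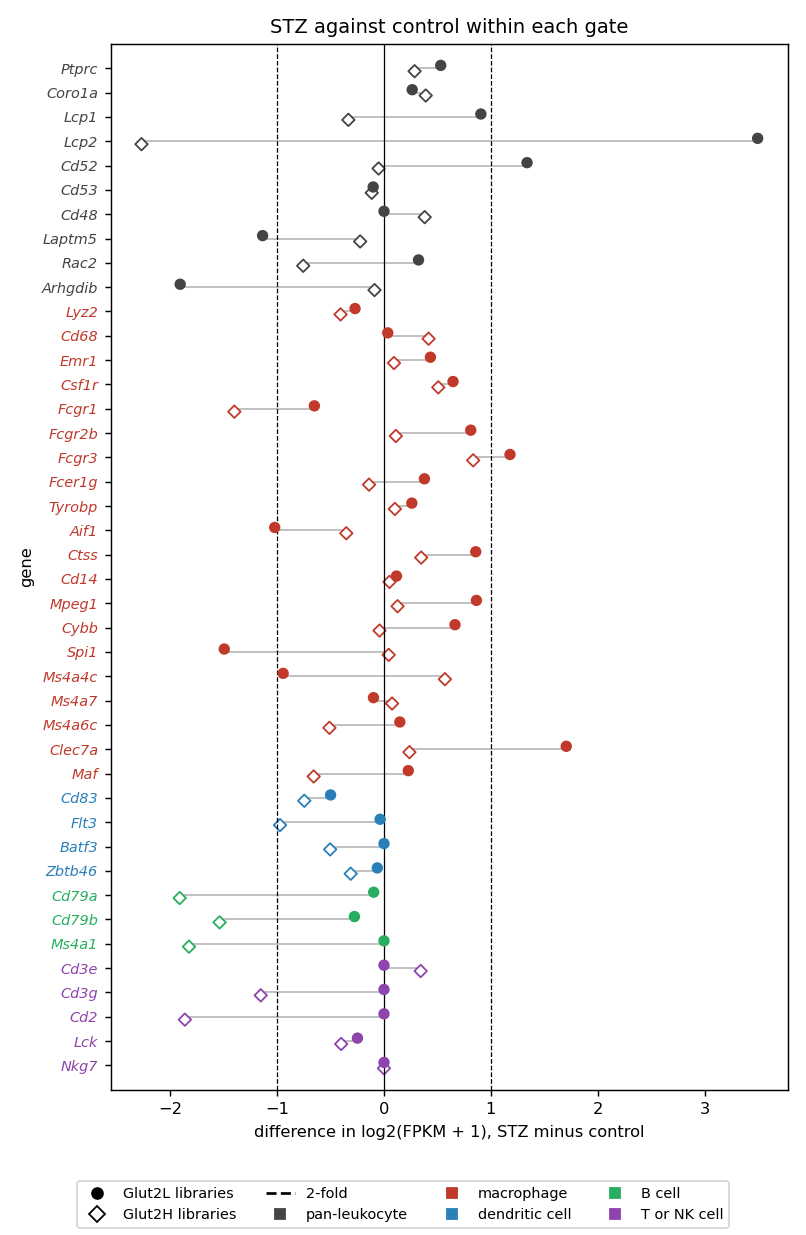
Difference in log2(FPKM + 1), STZ minus control, for each of the 42 genes in Glut2L-labelled libraries (filled circles) and Glut2H-labelled libraries (open diamonds), with dashed lines at 2-fold and 1 library behind each value. Most points lie within 2-fold, Lcp2 lies at 3.50 and -2.27, and the B cell genes lie left of the 2-fold line in the Glut2H-labelled libraries.

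Further genes of the same lineages were read from lists taken from general knowledge. Counts stand beside shares of all measured genes, of which 17.8% in STZ mice and 18.5% in control mice were at least 2-fold lower. Of 14 other pan-leukocyte genes, 11 were at least 2-fold lower in Glut2L-labelled cells of STZ mice and 14 in control mice, with 0 higher. Itgb2, the shared beta chain of leukocyte integrins, had 6.38 FPKM in Glut2L-labelled STZ cells and 1.68 FPKM in Glut2L-labelled control cells, against 109 FPKM in Glut2H-labelled STZ cells and 97.7 FPKM in Glut2H-labelled control cells. Ptpn6, which encodes the phosphatase SHP-1, was lower in STZ cells of both gates, at 46.9 FPKM in Glut2L-labelled STZ cells and 180.2 FPKM in Glut2L-labelled control cells, against 58.6 FPKM in Glut2H-labelled STZ cells and 476 FPKM in Glut2H-labelled control cells. Of 15 other macrophage genes, 10 were measured in STZ mice and 11 in control mice. In either treatment 10 were at least 2-fold lower in Glut2L-labelled cells and 0 were higher. Lgals3, which encodes galectin-3, had 37.2 FPKM in Glut2L-labelled STZ cells and 29.7 FPKM in Glut2L-labelled control cells, against 651 FPKM in Glut2H-labelled STZ cells and 569 FPKM in Glut2H-labelled control cells.

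In the other lymphoid lists more measured genes were lower than higher in Glut2L-labelled cells. The other dendritic list was mixed in control mice. Only measured genes could be counted, and these were few. For all measured genes the shares at least 2-fold lower and higher were 17.8% and 22.9% in STZ mice. They were 18.5% and 19.7% in control mice. Of 7 other dendritic cell genes, 3 were measured in STZ mice, of which 2 were at least 2-fold lower and 0 higher in Glut2L-labelled cells. In control mice 6 were measured, of which 2 were lower and 2 higher. Irf8, a transcription factor of dendritic cells and macrophages, had 0.825 FPKM in Glut2L-labelled STZ cells and 1.89 FPKM in Glut2L-labelled control cells, against 19.97 FPKM in Glut2H-labelled STZ cells and 18.1 FPKM in Glut2H-labelled control cells. Of 11 other B cell genes, 4 were measured in STZ mice and 6 in control mice. Lower were 3 of these in STZ mice and 5 in control mice, with 0 higher in either. Pax5, the B cell identity factor, had 0.326 FPKM in Glut2L-labelled STZ cells and 1.84 FPKM in Glut2L-labelled control cells, against 3.17 FPKM in Glut2H-labelled STZ cells and 9.21 FPKM in Glut2H-labelled control cells. Of 22 other T or NK cell genes, 5 were measured in STZ mice, of which 4 were lower and 1 higher. In control mice 9 were measured, of which 6 were lower and 1 higher. Of 12 neutrophil genes, 4 were measured in either treatment, of which 2 were lower and 1 higher. Of 12 genes of immunoreceptor signalling, through which Tyrobp and Fcer1g act, 10 were measured in STZ mice and 11 in control mice. Of these, 7 were lower and 1 higher in STZ mice, and 10 were lower in control mice.

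**Figure D5:**
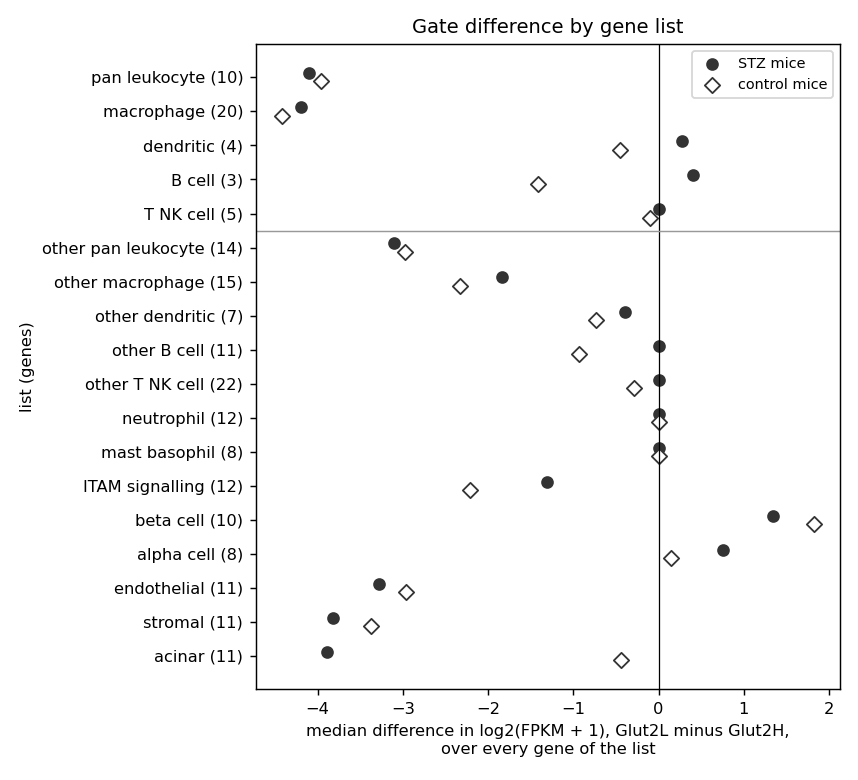
Median difference in log2(FPKM + 1), Glut2L-labelled minus Glut2H-labelled, over every gene of each list (number of genes in parentheses), in STZ mice (filled circles) and control mice (open diamonds). The 5 lists of leukocyte markers stand above the grey line, and the macrophage, pan-leukocyte, endothelial and stromal lists lie left of 0 in both treatments while the beta cell list lies right of 0.

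Markers of other non-endocrine cells moved with the leukocyte markers between the gates. The all-gene shares were 17.8% lower and 22.9% higher in STZ mice, and 18.5% lower and 19.7% higher in control mice. All 11 stromal genes were at least 2-fold lower in Glut2L-labelled cells in both treatments, with medians of -3.82 in STZ mice and -3.37 in control mice. Vim, the intermediate filament of mesenchymal cells and leukocytes, had 11.97 FPKM in Glut2L-labelled STZ cells and 33.7 FPKM in Glut2L-labelled control cells, against 455 FPKM in Glut2H-labelled STZ cells and 546 FPKM in Glut2H-labelled control cells. Of 11 endothelial genes, 10 were lower in either treatment. The 10 beta cell genes went the other way, with 8 at least 2-fold higher in Glut2L-labelled cells of STZ mice and 10 in control mice. Acinar genes differed from the leukocyte markers in that 10 of 11 were lower in STZ mice and 0 in control mice. The part that the mixture of cell types had in the leukocyte differences was not tested.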

How the data were processed

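RNA of 4 sorted populations was sequenced, 1 library each, as stranded total RNA after removal of ribosomal RNA, per the labels' protocols. The authors deposited FPKM, 1 value per gene and library beside a lower and an upper bound, per the file headers. Per the submitters' processing notes, TopHat2, SAMtools and Cuffdiff were used on GRCm38 (mm10). The sources used here do not give their versions, the annotation release or the library scaling. Tables deposited for single samples were compared at 156680 FPKM values, of which 0 differed.

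Members were matched by symbol, and all 42 had a status of OK in every library. Positions are from GENCODE M21 by gene ID, which matched 37607 of 39170 rows, and upstream windows from RefSeq on GRCm38.p6. Differences are in log2(FPKM + 1) over genes at 1 FPKM or more in either library, and 2-fold, 4-fold and 16-fold differences were counted. No test was run, since each group has 1 library. Depth is unknown: among 1541 genes below 0.5 FPKM in both Glut2L-labelled libraries, no bin of 0.05 in the log2 ratio held more than 39, so no steps of whole reads were seen. Antisense and neighbouring genes can share reads with a member where the counting does not separate them. Some FPKM lay outside their own deposited interval, in 118 to 182 genes per library.

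The members, the gene lists and the comparisons were chosen with earlier results of these data known. Full values were given by a rule: in each lineage the 3 genes of highest mean FPKM, the lowest and highest gate difference in each treatment, and genes at least 2-fold different between treatments with at least 5 FPKM. Genes of other lists were named as the 2 of highest mean FPKM, or 1 of them. Other members named, and Cd247, Cd3d, S100a8 and S100a9 from the other lists, were chosen after their values were seen. The alternatives were pseudocounts of 0.1 and 5, no filter or a filter of 5 FPKM, 3 scalings, non-overlapping intervals, a 4-fold limit and the separate tables. Leaving out members past limits on overlap and locus width, and counting protein-coding genes alone, were chosen after seeing the data. The counting was checked on simulated libraries. Python 3.11.15, numpy 2.4.6, pandas 2.3.3 and matplotlib 3.10.9 were used.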

Additional observations from a re-analysis of the deposited data

Results flagged for a closer look

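Lcp2 was the 1 gene of the 42 whose STZ and gate differences each pointed opposite ways by more than 2-fold. In log2(FPKM + 1), STZ minus control was 3.50 in the Glut2L-labelled libraries and -2.27 in the Glut2H-labelled ones. Glut2L-labelled minus Glut2H-labelled was 1.80 in STZ mice and -3.97 in control mice. The difference between these was not tested, since each group has 1 library, and the deposited intervals of Lcp2 overlapped in all 4 comparisons.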

How the results depend on the processing

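No paired analysis was possible because each group has 1 library, which leaves a single pair per comparison, and no library could be left out for the same reason. Values were called moved past a factor of 1.5, or past 5 points for shares. Between the gates, 28 genes in STZ mice (27 lower, with Lcp2 higher) and 30 in control mice (all lower) stayed past 2-fold under every pseudocount, filter and scaling. With a pseudocount of 0.1 the median gate difference of the measured genes in control mice was -4.87, against -3.95 as reported. With a pseudocount of 5 it was -2.80, and that in STZ mice was -2.85, against -4.12 as reported. Equal-sum scaling gave -3.13 in STZ mice. That scaling moved the share of lower calls among all genes past 2-fold to 14.4% in STZ mice and 21.4% in control mice, against 43.6% and 48.4% as reported, and setting the median of all ratios to 0 gave 56.9% in STZ mice.

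Counts between treatments depended on the settings. In Glut2L-labelled cells the 8 genes past 2-fold became 15 with a pseudocount of 0.1, 1 with a pseudocount of 5, 2 with the filter of 5 FPKM, 0 with non-overlapping intervals and 1 at 4-fold. In Glut2H-labelled cells the 7 became 3 with a pseudocount of 5, 4 with the filter of 5 FPKM, 1 with non-overlapping intervals and 1 at 4-fold. The 1 gene past 2-fold in every pseudocount, filter and scaling in Glut2L-labelled cells was Lcp2, and the 3 in Glut2H-labelled cells were Lcp2, Fcgr1 and Cd79a. The sign changed in some setting for 2, 2 and 9 genes in the gate comparison of control mice and the STZ comparisons of Glut2L-labelled and Glut2H-labelled cells. Another setting left out 5 genes, Cd52, Csf1r, Lcp2, Ms4a1 and Ms4a6c. Each shares at least 10% of its exon bases with another gene or has a deposited locus over 3 times the gene. Members with smaller overlaps were kept. Without the 5, the macrophage share of the summed level was 61.9% in Glut2L-labelled STZ cells. It was 84.9% in Glut2H-labelled STZ cells and 82.8% in Glut2H-labelled control cells. Among protein-coding genes alone, 16.5% in STZ mice and 16.6% in control mice were at least 2-fold lower in Glut2L-labelled cells. The cause was not tested for any of these shifts. The deposited interval had a median half-width of 123% and 121% of the FPKM for members in the Glut2L-labelled STZ and control libraries, against 89.4% and 86.2% in the Glut2H-labelled STZ and control libraries, so low values are the least certain.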

Other observations

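Among lists not described above, mast cell and basophil genes were near 0, apart from Hdc, the histamine-forming enzyme, at 1.63 FPKM in Glut2L-labelled STZ cells and 6.85 FPKM in Glut2L-labelled control cells, against 0.580 FPKM in Glut2H-labelled STZ cells and 0.618 FPKM in Glut2H-labelled control cells. Fyn, a Src-family kinase of lymphocytes that many other cells make, had 29.6 FPKM in Glut2L-labelled STZ cells and 7.41 FPKM in Glut2L-labelled control cells, against 13.6 FPKM in Glut2H-labelled STZ cells and 11.3 FPKM in Glut2H-labelled control cells. Il7r, the interleukin 7 receptor of lymphocytes and some myeloid cells, had 1.03 FPKM in Glut2L-labelled STZ cells and 1.35 FPKM in Glut2L-labelled control cells, against 28.8 FPKM in Glut2H-labelled STZ cells and 27.6 FPKM in Glut2H-labelled control cells. It was thus high in both Glut2H-labelled libraries, while Cd3g and Cd2 were listed at 0 in 1 of them. S100a8 and S100a9, the abundant granulocyte alarmins, were listed at 0 in all 4 libraries.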
